A study of Mus musculus with 18 samples.

Results

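Collagen genes were followed through RNA sequencing of cells isolated from mouse hearts. Every gene of the deposited count table whose symbol reads Col, a number, a and a number was taken, which gave 44 of the 19094 protein-coding genes listed. They comprised 11 genes of fibrillar chains, 6 of basement membrane (type IV) chains, 6 of beaded filament (type VI) chains and 9 of FACIT chains (fibril-associated collagens with interrupted triple helices). The other classes were the multiplexins (2 genes), the short-chain network collagens (3), the anchoring fibril collagen Col7a1 (1), the transmembrane collagens (4) and Col26a1 and Col28a1 (2). Cardiomyocytes, the contractile cells of the heart, and cardiac fibroblasts, its main matrix-making cells, came from the same 6 mice, all 16 months old. The mice were 3 Bag3-P209L Tg+ mice, which carry a transgene for a mutant form of the co-chaperone BAG3, and 3 Bag3-WT mice of the same age. What promoter drives the transgene was not stated in the labels. The 18 libraries held 1 of fibroblasts and 2 of cardiomyocytes (labelled rep1 and rep2) for every animal, and the latter pair was added up, so that each cell type had 6 columns of 3 Tg+ and 3 Bag3-WT mice.

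Collagens are secreted proteins whose chains wind into a triple helix. Fibrillar chains form the tensile fibrils of the heart interstitium, type IV chains form the sheet-like network of the basement membrane around muscle cells and vessels, and type VI chains form beaded filaments that link basement membranes to the interstitium. FACIT collagens sit on the surface of fibrils, and multiplexins lie in or next to basement membranes. In the heart most fibrillar collagen is made by fibroblasts, while endothelial cells, pericytes, smooth muscle cells and fibroblasts all make basement membrane collagen.

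Levels are given as nuclear CPM, the counts of a gene per 1000000 counts of nuclear genes, with the 13 mitochondrial genes left out. In units of 1000000, nuclear counts per mouse were 2.26 to 7.79 in cardiomyocytes and 11.3 to 15.8 in fibroblasts, so that 3 counts, the floor used here, amounted to 0.385 to 1.33 nuclear CPM in cardiomyocytes and 0.190 to 0.265 in fibroblasts. Columns of both cell types held RNA of other cells, so that each fold between cell types below is between mixed columns. All 11 cardiomyocyte markers were called higher there than in fibroblasts, but the summed level of 12 fibroblast markers spanned 5121 to 13518 nuclear CPM in cardiomyocytes and 3818 to 14285 in fibroblasts, and of these markers 1 was called higher and 1 lower. Of 11 smooth muscle and pericyte markers 9 were called higher in cardiomyocytes, of 8 mesothelial markers 7 were higher and 1 lower, and all 10 macrophage markers were lower, where 19.3% of all genes were called higher and 24.4% lower. Macrophage marker sums were 1154 to 5206 nuclear CPM in cardiomyocytes and 5510 to 15823 in fibroblasts, where they were above the fibroblast marker sum in WT mice 1 and 3. Cardiomyocyte marker sums were 3494 to 9413 in cardiomyocytes and 943 to 2479 in fibroblasts, and endothelial sums 3455 to 9896 and 2944 to 6581. No member of these 5 lists was at 0 in a whole group. Of 10 endothelial markers 2 were lower (3 higher and 1 lower when scaled on nuclear library size only, where fibroblast markers were 2 higher and 0 lower), of 4 Schwann cell markers tested 1 was higher (summed levels 4.08 to 52.6 nuclear CPM in all 12 columns), and of 5 airway and skin epithelium markers tested 2 were higher and 1 lower, with a summed level of 856 in cardiomyocytes of Tg+ mouse 1 and at most 25.5 in the other 11 columns. On nuclear library size only, 33.5% of all genes were called higher and 15.8% lower. In bulk RNA, fewer cells of a type and less RNA per cell cannot be told apart.

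Collagens made up 1.53% ± 0.747 (SD, n = 6) of nuclear counts in cardiomyocytes, with a range of 0.895% to 2.76%, and 0.643% ± 0.185 in fibroblasts, with a range of 0.303% to 0.855%. The lowest cardiomyocyte column was thus above the highest fibroblast column. Only the order of the means turned, within overlapping ranges, when mitochondrial counts were kept in the total. Those shares were 0.389% ± 0.241 (range 0.142% to 0.787%) in cardiomyocytes and 0.426% ± 0.181 (range 0.0783% to 0.561%) in fibroblasts (SD, n = 6 each). Tg+ mouse 1, WT mouse 1 and WT mouse 3 still had the higher share in cardiomyocytes, and the other mice had it in fibroblasts. Type I fibrillar chains weighed most in cardiomyocytes and type IV chains in fibroblasts. Per kilobase of exon, fibrillar genes held 61.0% ± 14.3 of the collagen signal in cardiomyocytes and 30.8% ± 3.05 in fibroblasts, and basement membrane genes held 15.9% ± 7.80 and 38.6% ± 2.94 (SD, n = 6). Beaded filament genes held 14.6% ± 5.39 and 16.7% ± 1.39, FACIT genes 2.41% ± 2.23 and 3.16% ± 0.817, and multiplexins 4.70% ± 2.93 and 8.58% ± 0.669. These are shares and not levels. Summed nuclear CPM of basement membrane genes spanned 1195 to 3052 in cardiomyocytes and 1167 to 3051 in fibroblasts, with nearly the same range. Fibrillar genes spanned 4632 to 20164 and 1057 to 3259.5, without overlap. Col1a1, the main chain of type I collagen, took 16.2% to 56.4% of all collagen counts in the 6 cardiomyocyte columns and 7.47% to 11.1% in the 6 fibroblast columns. Col4a1, the main chain of type IV collagen, took 3.36% to 12.7% and 18.8% to 23.5%. Neither gene's ranges overlapped between the cell types.

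**Figure D1:**
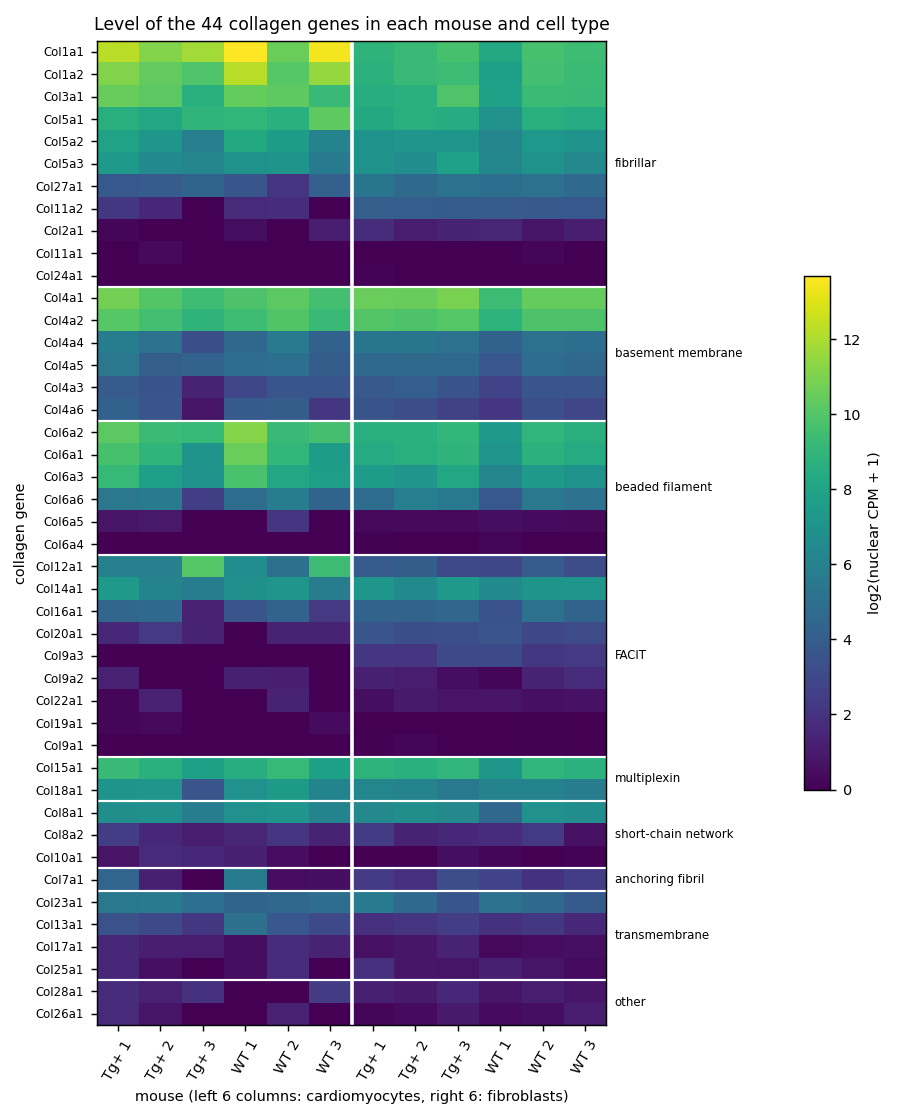
Level of each of the 44 collagen genes, as log2(nuclear CPM + 1), in the 6 cardiomyocyte columns (left) and 6 fibroblast columns (right), grouped by class and ordered within a class by mean level. Col1a1 is the brightest row in cardiomyocytes and Col4a1 in fibroblasts, and Col12a1 stands out in the cardiomyocytes of Tg+ mouse 3 and WT mouse 3.

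Ordered by mean level per kilobase, Col1a1 led in cardiomyocytes (930 nuclear CPM per kilobase, range 236 to 2000) and stood above Col1a2, the second gene, in 6 of 6 mice. Col1a2 (177) was above Col4a1 (143) in only 2 of 6 mice, and Col6a1 (141), Col6a2 (124), Col4a2 (117) and Col3a1 (106) followed with overlapping ranges. In fibroblasts Col4a1 (187, range 90.4 to 257) stood above Col4a2 (135, range 68.5 to 160) in 6 of 6 mice, and Col4a2 above Col1a1 (94.8) in 6 of 6. Col6a1 (80.3), Col15a1 (64.9), Col3a1 (54.9), Col6a2 (48.1) and Col1a2 (44.7) came next. These ranks depend on the exon lengths used. Not divided by length, Col1a2 averaged 555 nuclear CPM in fibroblasts, beside 622 for Col1a1 and 890 for Col4a2. At the low end, 4 genes (Col24a1, Col9a3, Col6a4 and Col9a1) had no count in any cardiomyocyte column, and no member was at 0 in all 6 fibroblast columns.

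Differences between the cell types were tested within mice with edgeR's quasi-likelihood test, TMM scaling and Benjamini-Hochberg adjustment over all 14223 genes tested. Of the 44 collagen genes 37 passed the filter on low counts, and Col11a1, Col24a1, Col6a4, Col6a5, Col9a1, Col19a1 and Col22a1 did not. Called higher in cardiomyocytes (adjusted p below 0.05) were 5 members (13.5% of 37), Col1a1, Col1a2, Col12a1, Col10a1 and Col13a1, where 19.3% of all genes were called higher. Called lower were 9 (24.3%): Col11a2, Col20a1, Col9a3, Col27a1, Col2a1, Col14a1, Col4a1, Col16a1 and Col4a2, where 24.4% of all genes were called lower. The total of 14 of 37 (37.8%) stood beside 43.7% of all genes, so neither count sets the family apart from other genes. Among the called members, Col10a1 passed the filter only through cardiomyocyte columns, and Col2a1 and Col9a3 only through fibroblast columns. Each was higher in the cell type that let it in, so its adjusted p is not counted as support. The median log2 fold change was −0.34 over the 37 members and −0.03 over all genes. The 14 calls became 8 without WT mouse 3 and 9 without WT mouse 2. All-gene calls fell as well, from 6212 of 14223 to 5037 of 14628 and 5519 of 14611. The 5 higher calls became 1 without WT mouse 1, 2 without Tg+ mouse 1 and 3 without Tg+ mouse 2, WT mouse 2 or WT mouse 3. All-gene higher calls were 2742 in the main fit and 2012 to 2366 in these fits. The 9 lower calls became 5 without WT mouse 3, and 6 without Tg+ mouse 3 or WT mouse 2. All-gene lower calls were 3470 in the main fit, and 2991, 3569 and 3153 in these.

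TMM scaling moved the fold changes of all genes: without it, on nuclear library size only, the median of all genes was 0.42 higher on the log2 scale. All-gene calls were then 4770 higher and 2250 lower, in place of 2742 and 3470. Among collagens 6 were then higher and 5 lower, where 33.5% and 15.8% of all genes were called (49.4% in all), and the median of the 37 members turned from −0.34 to 0.08. Of the 14 calls, 10 held under both scalings, those of Col4a1, Col4a2, Col14a1 and Col16a1 were lost, and Col6a2 was gained (log2 fold change 1.16, SE 0.43, adjusted p = 0.0426). No called member changed sign. On nuclear CPM itself, Col1a1, Col1a2, Col6a2 and Col12a1 were higher in cardiomyocytes in 6 of 6 mice, as were 26.9% of all genes tested. Col2a1, Col11a2, Col27a1, Col9a3 and Col20a1 were lower in 6 of 6, as were 15.7% of all genes tested (42.6% for both directions).

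**Figure D2:**
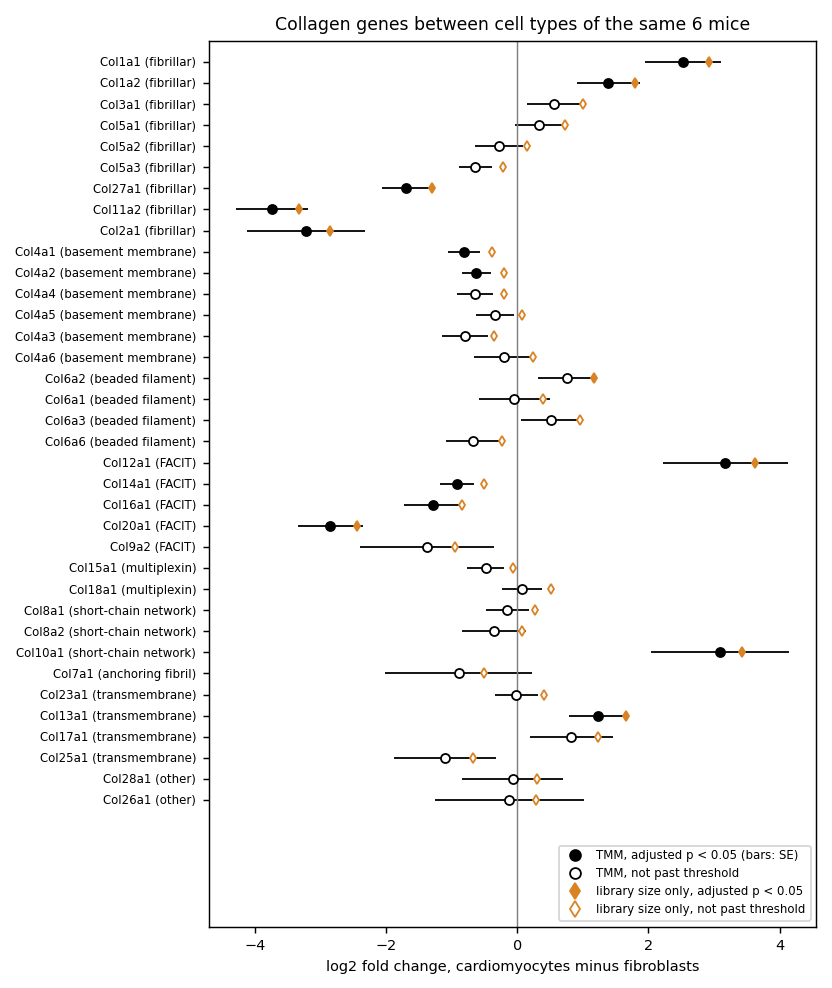
Log2 fold change between cardiomyocytes and fibroblasts of the same 6 mice for 36 collagen genes (Col9a3, at 0 in cardiomyocytes, is not drawn), with TMM scaling (circles, bars are the SE) and with nuclear library size only (diamonds). Filled symbols passed adjusted p < 0.05. Diamonds lie to the right of circles throughout, and the 3 lowest circles (Col11a2, Col2a1 and Col20a1) stay filled in both.

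Of the 9 fibrillar genes tested, both type I chains (Col1a1 and Col1a2) were higher in cardiomyocytes, Col11a2, Col27a1 and Col2a1 were lower, and the other 4 did not pass. Col1a1 stood at 4994, 2256 and 3470.4 nuclear CPM in cardiomyocytes of Tg+ mice 1, 2 and 3 and at 13129, 1546 and 11209 in those of Bag3-WT mice 1, 2 and 3. In fibroblasts of the same mice it stood at 474, 605 and 836 (Tg+) and 306, 830.4 and 683 (Bag3-WT). The cell types did not overlap, and the cardiomyocytes of WT mice 1 and 3 were far above the rest. The log2 fold change was 2.52 (SE 0.58, adjusted p = 0.00558), and the call was lost without Tg+ mouse 3 and WT mouse 3 together (2.36, adjusted p = 0.0536).

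Col1a2, the partner chain of Col1a1 in type I collagen, stood at 2195, 1365 and 946 (Tg+) and 4672, 1098 and 2950.4 nuclear CPM (Bag3-WT) in cardiomyocytes. In fibroblasts it stood at 446, 599 and 667 (Tg+) and 213, 775 and 632 (Bag3-WT). Here too the lowest cardiomyocyte column lay above the highest fibroblast column. The log2 fold change was 1.38 (SE 0.48, adjusted p = 0.0384), and the call was lost without Tg+ mouse 1 (1.25, adjusted p = 0.104), WT mouse 1 (0.92, adjusted p = 0.0505) or WT mouse 3 (1.26, adjusted p = 0.0997). It was also lost without Tg+ mouse 3 and WT mouse 3 together, without a filter on low counts, and with rep1 libraries only. Col3a1, the chain of type III collagen that forms mixed fibrils with type I, ranged from 408 to 1428 nuclear CPM in cardiomyocytes and from 225 to 975 in fibroblasts, and did not pass (0.56, SE 0.41, adjusted p = 0.293).

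Col11a2, a minor fibrillar chain best known from cartilage, stood at 3.61, 1.86 and 0 (Tg+) and 2.21, 2.41 and 0 nuclear CPM (Bag3-WT) in cardiomyocytes. In fibroblasts it stood at 16.7, 16.3 and 14.5 (Tg+) and 14.3, 13.1 and 12.7 (Bag3-WT). The fibroblast columns lay close together and all above the cardiomyocyte columns (log2 fold change −3.73, SE 0.55, adjusted p = 0.000301). Col27a1, a fibrillar chain of developing cartilage, stood at 12.7, 14.6 and 20.2 (Tg+) and 11.4, 3.16 and 17.0 (Bag3-WT) in cardiomyocytes, against 38.4, 25.1 and 33.2 (Tg+) and 29.2, 33.0 and 24.7 (Bag3-WT) in fibroblasts. It too was lower without overlap (−1.70, SE 0.36, adjusted p = 0.00317).

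Col2a1, the chain of cartilage collagen, was near the floor in cardiomyocytes, with 0 to 1.05 nuclear CPM. It was low in fibroblasts, with 0.734 to 2.43, but above the floor of 0.190 to 0.265 there. It passed the filter on low counts only through fibroblast columns. Its log2 fold change was −3.21 (SE 0.90, adjusted p = 0.0135), and the call was lost without Tg+ mouse 1 (−2.86, adjusted p = 0.0596). The other tested fibrillar genes, Col5a1, Col5a2 and Col5a3, did not pass (log2 fold changes 0.33, −0.28 and −0.64). Of the 9 cartilage markers looked at, 8 were in the table. Their summed level spanned 87.5 to 259 nuclear CPM in cardiomyocytes and 43.2 to 228 in fibroblasts, 4 were tested, and 1 was called higher and 1 lower (1 and 0 on nuclear library size only).

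**Figure D3:**
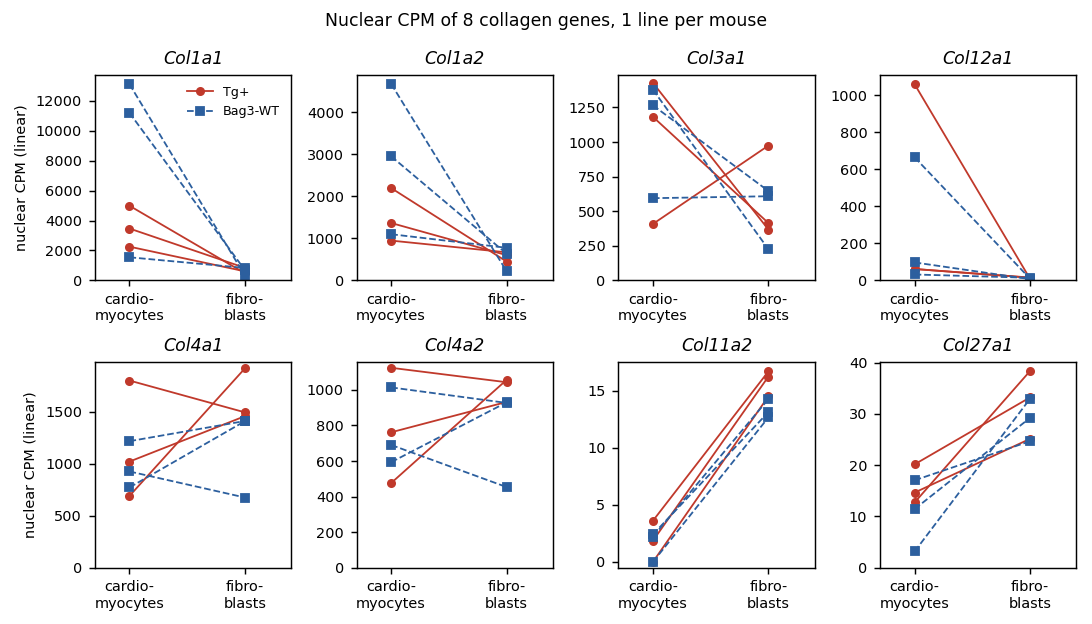
Nuclear CPM (linear axes) of 8 collagen genes in cardiomyocytes and fibroblasts, with 1 line per mouse, Tg+ solid and Bag3-WT dashed. All 6 lines fall for Col1a1, Col1a2 and Col12a1, all 6 rise for Col11a2 and Col27a1, and lines go both ways for Col3a1, Col4a1 and Col4a2.

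All 6 basement membrane genes had negative log2 fold changes (median −0.63) with TMM scaling, and 2 of them, the chains of the common type IV network, passed. Col4a1 stood at 1799, 1019.9 and 689 (Tg+) and 925, 1216 and 771 nuclear CPM (Bag3-WT) in cardiomyocytes, and at 1493, 1457 and 1917 (Tg+) and 675, 1410.3 and 1409 (Bag3-WT) in fibroblasts. Its partner chain Col4a2 stood at 1124, 761 and 476 (Tg+) and 690.2, 1014 and 593 (Bag3-WT) in cardiomyocytes, and at 1043, 932 and 1057 (Tg+) and 453, 927 and 930.2 (Bag3-WT) in fibroblasts. The cell types overlapped for both genes, and in Tg+ mouse 1 and WT mouse 1 both genes were higher in cardiomyocytes, as was Col4a2 in WT mouse 2. The first 2 of these mice share the first part of the animal code in their titles, whose meaning is not stated. The log2 fold changes were −0.81 (SE 0.25, adjusted p = 0.0208) for Col4a1 and −0.62 (SE 0.22, adjusted p = 0.0416) for Col4a2. On nuclear library size only they were −0.39 (adjusted p = 0.259) and −0.20 (adjusted p = 0.521), with neither called. Without Tg+ mouse 2, Tg+ mouse 3, WT mouse 2 or WT mouse 3 the Col4a1 call was lost (log2 fold changes −0.75, −0.62, −0.81 and −0.73, adjusted p = 0.0686, 0.0502, 0.0505 and 0.0724). Without any mouse but WT mouse 1 the Col4a2 call was lost (log2 fold changes −0.79 to −0.47 over the 6 mice left out in turn). Both calls were also lost without Tg+ mouse 3 and WT mouse 3 together. Both genes lie head to head on chromosome 8 of GRCm38 (Col4a1 11198423 to 11312826, minus strand, Col4a2 11312805 to 11449287, plus strand), with first exons that overlap by 22 bases. The minor chains Col4a3, Col4a4, Col4a5 and Col4a6 did not pass (log2 fold changes −0.79, −0.64, −0.34 and −0.20), and the signs of Col4a5 and Col4a6 turned on nuclear library size only.

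No beaded filament gene passed. Col6a2, a chain of type VI collagen, stood at 1194, 649.6 and 579.7 (Tg+) and 2368, 600.2 and 787 nuclear CPM (Bag3-WT) in cardiomyocytes, and at 395, 414 and 538 (Tg+) and 162, 507 and 388 (Bag3-WT) in fibroblasts. Its neighbour on chromosome 10 and partner chain Col6a1 stood at 818, 502 and 136 (Tg+) and 1511, 540.4 and 186 in cardiomyocytes (Bag3-WT), and at 335, 375 and 478 (Tg+) and 142, 442 and 339 (Bag3-WT) in fibroblasts. Col6a2 was higher in cardiomyocytes of every mouse, while Col6a1 was lower there in Tg+ mouse 3 and WT mouse 3. The log2 fold changes were 0.75 for Col6a2 (SE 0.43, adjusted p = 0.184) and −0.04 for Col6a1 (SE 0.55, adjusted p = 0.957). Col6a3, the long chain of type VI collagen (0.52), and Col6a6 (−0.68) did not pass either.

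Of the 6 FACIT genes tested, 1 was higher and 4 were lower in cardiomyocytes. Col12a1, which binds fibrils of dense connective tissue, stood at 61.5, 61.6 and 1060.3 (Tg+) and 97.0, 31.8 and 665 nuclear CPM (Bag3-WT) in cardiomyocytes, and at 14.2, 15.2 and 7.25 (Tg+) and 6.58, 14.1 and 8.50 (Bag3-WT) in fibroblasts. All cardiomyocyte columns were above all fibroblast columns, and Tg+ mouse 3 and WT mouse 3 were the highest by far. The log2 fold change was 3.17 (SE 0.95, adjusted p = 0.0231). It was 1.80 without those 2 mice together, 2.51 without Tg+ mouse 3 and 2.53 without WT mouse 3. The call was lost without WT mouse 1 (3.07, adjusted p = 0.0596) and without a filter on low counts (3.14, adjusted p = 0.0713). The same 2 cardiomyocyte columns had the highest smooth muscle and pericyte marker sums (5089 and 4809, against 1409 to 3712 in the other 4) and the lowest fibroblast marker sums (5121 and 5998, against 9835 to 13518). They also had the lowest endothelial sums (3455 and 3874, against 4999 to 9896) and mesothelial sums (38.8 and 429, against 766 to 1296). Macrophage sums were 1154, the lowest, in Tg+ mouse 3 and 3945 in WT mouse 3, against 2834 to 5206. The part of these cells in the Col12a1 level was not tested.

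Col14a1, another FACIT chain of the fibril surface, stood at 161, 68.7 and 52.2 (Tg+) and 116, 138 and 52.2 nuclear CPM (Bag3-WT) in cardiomyocytes, and at 146, 92.0 and 169 (Tg+) and 92.2, 136 and 146 (Bag3-WT) in fibroblasts. The 2 lowest cardiomyocyte columns were those of Tg+ mouse 3 and WT mouse 3. It passed (log2 fold change −0.92, SE 0.26, adjusted p = 0.0137), but not without WT mouse 3 (−0.75, adjusted p = 0.0510), nor on nuclear library size only (−0.50, adjusted p = 0.166). Without both of those mice together the call was lost as well. Col16a1, a FACIT chain of skin, muscle and vessel walls, stood at 21.5, 25.0 and 1.37 (Tg+) and 11.2, 19.2 and 3.78 (Bag3-WT) in cardiomyocytes and at 19.5, 19.4 and 21.9 (Tg+) and 9.81, 34.6 and 19.7 (Bag3-WT) in fibroblasts. The same 2 columns were again the lowest. Its log2 fold change was −1.28 (SE 0.45, adjusted p = 0.0402), −0.51 without both mice (adjusted p = 0.139), and the call was also lost without Tg+ mouse 3 (−0.87), WT mouse 2 (−1.25) or WT mouse 3 (−1.02) alone. Further fits that lost it were those with rep1 libraries only, without the mouse as block, on nuclear library size only and on the deposited normalized signal.

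Col20a1 stood at 2.02, 3.78 and 1.46 (Tg+) and 0, 1.57 and 1.59 nuclear CPM (Bag3-WT) in cardiomyocytes, and at 11.0, 8.86 and 9.20 (Tg+) and 11.1, 6.54 and 8.05 (Bag3-WT) in fibroblasts. It was lower in cardiomyocytes without overlap (log2 fold change −2.85, SE 0.49, adjusted p = 0.000916). Col9a3, a chain of the cartilage FACIT type IX, had no count in any of the 6 cardiomyocyte columns and stood at 3.46, 3.30 and 7.15 (Tg+) and 7.40, 3.65 and 3.85 (Bag3-WT) in fibroblasts. Against a floor of 3 counts over the group it was at least 36.4-fold lower in cardiomyocytes (adjusted p = 0.00125). It passed the filter on low counts only through fibroblast columns. Its partner chain Col9a1 had 4 counts over all fibroblast columns and none in cardiomyocytes, and Col9a2 did not pass (−1.37, SE 1.02, adjusted p = 0.300). The exons of Col9a3 share 234 bases with those of Tcfl5 on the opposite strand, and the labels do not say whether counting used strand. Col11a2, Col20a1, Col9a3 and Col27a1 kept their calls under all 17 alternatives run for them.

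Among the remaining classes, 1 short-chain and 1 transmembrane collagen were higher in cardiomyocytes. Col10a1, the short-chain collagen of hypertrophic cartilage, was near the floor, at 0.642, 2.12 and 1.83 (Tg+) and 1.33, 0.393 and 0 nuclear CPM (Bag3-WT) in cardiomyocytes and at 0 to 0.442 in fibroblasts. It passed the filter on low counts only through cardiomyocyte columns. Its log2 fold change was 3.09 (SE 1.05, adjusted p = 0.0337), and the call was lost without Tg+ mouse 1, Tg+ mouse 2, WT mouse 1 or WT mouse 2 (log2 fold changes 2.82, 2.52, 3.16 and 2.98). The call was also lost without that filter and with rep2 libraries only. Its exons share 18 bases with Nt5dc1 on the opposite strand. Col13a1, a transmembrane collagen of cell junctions with matrix, stood at 9.63, 7.03 and 3.65 (Tg+) and 31.8, 12.0 and 7.00 (Bag3-WT) in cardiomyocytes and at 2.61, 3.15 and 4.55 (Tg+) and 2.91, 3.69 and 1.95 (Bag3-WT) in fibroblasts. It was higher in 5 of 6 mice (1.23, SE 0.43, adjusted p = 0.0391). Leaving out any mouse but Tg+ mouse 3 ended that call, with log2 fold changes of 0.86 (without WT mouse 1) to 1.56 (without Tg+ mouse 3) over the 6 mice left out in turn. That call was also lost without a filter on low counts and with rep1 libraries only.

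The multiplexins, Col15a1 and Col18a1, did not pass (−0.48, SE 0.29 and 0.07, SE 0.31). Col15a1, which lies outside the basement membranes of muscle and capillaries, stood at 615, 418 and 217 (Tg+) and 363, 564 and 216 nuclear CPM (Bag3-WT) in cardiomyocytes and at 452, 407 and 513 (Tg+) and 151, 517 and 432 (Bag3-WT) in fibroblasts. Col18a1, whose end fragment is endostatin, stood at 134, 142 and 11.3 (Tg+) and 122, 176 and 70.3 (Bag3-WT) in cardiomyocytes and at 76.2, 68.3 and 45.4 (Tg+) and 69.0, 69.6 and 51.8 (Bag3-WT) in fibroblasts. Both genes overlapped between the cell types, and Col18a1 was lowest in cardiomyocytes of Tg+ mouse 3.

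Col8a1, a short-chain collagen of vessel walls, stood at 109, 114 and 53.3 (Tg+) and 118, 141 and 71.3 nuclear CPM (Bag3-WT) in cardiomyocytes and at 84.7, 109 and 84.6 (Tg+) and 22.4, 121 and 102 (Bag3-WT) in fibroblasts. Its partner Col8a2 stood at 4.62, 1.89 and 1.10 (Tg+) and 1.77, 3.14 and 1.59 (Bag3-WT) in cardiomyocytes and at 4.12, 1.54 and 1.86 (Tg+) and 2.34, 4.03 and 0.507 (Bag3-WT) in fibroblasts. Neither passed (log2 fold changes −0.15 and −0.35), and both overlapped.

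Col7a1, the collagen of the anchoring fibrils below epithelia, was uneven among cardiomyocytes. It stood at 21.0, 1.33 and 0 (Tg+) and 51.5, 0.393 and 0.446 nuclear CPM (Bag3-WT) there, and at 3.95, 2.78 and 8.34 (Tg+) and 5.65, 2.94 and 4.56 (Bag3-WT) in fibroblasts, and did not pass (−0.89, SE 1.12, adjusted p = 0.547). Tg+ mouse 1 and WT mouse 1, the 2 mice that share the first part of their code, were above all fibroblast columns and the other 4 below.

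The transmembrane collagen Col23a1 stood at 44.1, 48.4 and 30.7 (Tg+) and 19.9, 22.8 and 29.3 nuclear CPM (Bag3-WT) in cardiomyocytes and at 46.7, 24.8 and 11.8 (Tg+) and 34.3, 25.4 and 13.5 (Bag3-WT) in fibroblasts (−0.01, SE 0.33). Col17a1 (0.82) and Col25a1 (−1.10) did not pass. Col28a1 stood at 2.31, 1.42 and 2.92 (Tg+) and 0, 0 and 4.14 (Bag3-WT) in cardiomyocytes and between 0.696 and 1.86 in fibroblasts. Col26a1 stood at 2.18, 0.708 and 0 (Tg+) and 0, 1.41 and 0 (Bag3-WT) in cardiomyocytes and between 0.158 and 1.10 in fibroblasts. Neither of these low genes passed (−0.07, SE 0.77 and −0.12, SE 1.14).

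The start regions of the called genes were looked up in RefSeq's promoter table (GRCm38.p6), which held 35 of the 44 members and 9 of the 14 called. Col1a1, Col2a1, Col4a3, Col5a2, Col9a3, Col12a1, Col14a1, Col22a1 and Col26a1 had no entry. The 250 bases before the start were searched on both strands for TATAAA, which 12.4% of the 32851 promoters hold, for CCAAT (33.8%) and for GGGCGG (32.7%). TATAAA was found in 5 of the 35 members, CCAAT in 13 and GGGCGG in 21. The 120 bases before the start are printed 5′ to 3′ for the 4 called genes in which GENCODE places no exon there, to show how their starts differ. They are Col10a1 (chr10:34389861-34389980, plus strand) and Col13a1 (chr10:61979109-61979228, minus strand), which were higher in cardiomyocytes, and Col11a2 (chr17:34039018-34039137, plus strand) and Col27a1 (chr4:63215292-63215411, plus strand), which were lower. Starts are those of RefSeq. GENCODE begins the gene Col27a1 at 63214004, before its printed stretch, and Col11a2 at 34039437, beyond its printed stretch. Capitals mark the motifs searched for.
Col10a1: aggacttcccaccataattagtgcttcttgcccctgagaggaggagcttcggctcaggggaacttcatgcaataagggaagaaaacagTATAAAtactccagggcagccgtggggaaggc
Col13a1: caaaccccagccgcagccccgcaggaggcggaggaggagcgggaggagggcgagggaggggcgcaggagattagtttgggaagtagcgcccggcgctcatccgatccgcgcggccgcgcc
Col11a2: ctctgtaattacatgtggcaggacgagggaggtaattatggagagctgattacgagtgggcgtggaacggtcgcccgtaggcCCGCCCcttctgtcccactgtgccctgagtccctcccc
Col27a1: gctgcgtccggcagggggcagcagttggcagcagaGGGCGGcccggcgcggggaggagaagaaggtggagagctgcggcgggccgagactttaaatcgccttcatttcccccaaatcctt
Col10a1 had TATAAA beginning 32 bases before its start and neither of the other motifs in this stretch. GGGCGG, read on the opposite strand as CCGCCC, began 38 bases before the start of Col11a2, and in Col27a1 it began 85 bases before. The stretch of Col13a1 held none of the 3.

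Pairs of collagen genes, not all of them chains of the same collagen type, were compared as ratios per kilobase. The 5 pairs were tested over 6 mice by an exact two-sided sign-flip test, which cannot go below 0.0312. Col1a1 over Col1a2 was 4.31, 3.13 and 6.95 (Tg+) and 5.32, 2.67 and 7.19 (Bag3-WT) in cardiomyocytes and 2.01, 1.91 and 2.37 (Tg+) and 2.72, 2.03 and 2.05 (Bag3-WT) in fibroblasts. The ratio was higher in cardiomyocytes in 6 of 6 mice, by 1.09 ± 0.525 on the log2 scale (SD, n = 6, exact p = 0.0312, 0.0781 adjusted over the 5 ratios). Col3a1 over Col5a2, neighbours on chromosome 1, was also higher in 6 of 6 mice, by 0.80 ± 0.458 (SD, n = 6, exact p = 0.0312, 0.0781 adjusted).

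Col1a1 over Col3a1 was 5.23, 2.85 and 12.7 (Tg+) and 14.2, 1.83 and 28.2 (Bag3-WT) in cardiomyocytes, and lay between 1.28 and 2.18 in fibroblasts. It was higher in 5 of 6 mice (1.99 ± 1.67 log2, SD, n = 6, exact p = 0.0625, 0.0781 adjusted), and the exception was WT mouse 2. Col4a1 over Col4a2 lay between 1.06 and 1.42 in cardiomyocytes and between 1.27 and 1.61 in fibroblasts, and was lower in cardiomyocytes in 5 of 6 mice (−0.18 ± 0.183, SD, n = 6, exact p = 0.0938, 0.0938 adjusted).

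Col6a1 over Col6a2 was the steadiest ratio in fibroblasts, between 1.61 and 1.72 in all 6 mice. In cardiomyocytes it was 1.30, 1.47 and 0.447 (Tg+) and 1.21, 1.71 and 0.450 (Bag3-WT), so Tg+ mouse 3 and WT mouse 3 again stood apart from the other 4 (−0.79 ± 0.875 log2, SD, n = 6, exact p = 0.0625, 0.0781 adjusted). No ratio passed after adjustment. Ratio levels depend on the exon lengths used, while the differences between cell types do not. On counts not divided by length, fibroblast ratios were 0.847 to 0.905 for Col6a1 over Col6a2 and 1.01 to 1.44 for Col1a1 over Col1a2. Between genotypes, where 3 against 3 mice cannot give a p below 0.1, exact permutation p ran from 0.2 to 1 over the 5 ratios and both cell types.

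**Figure D4:**
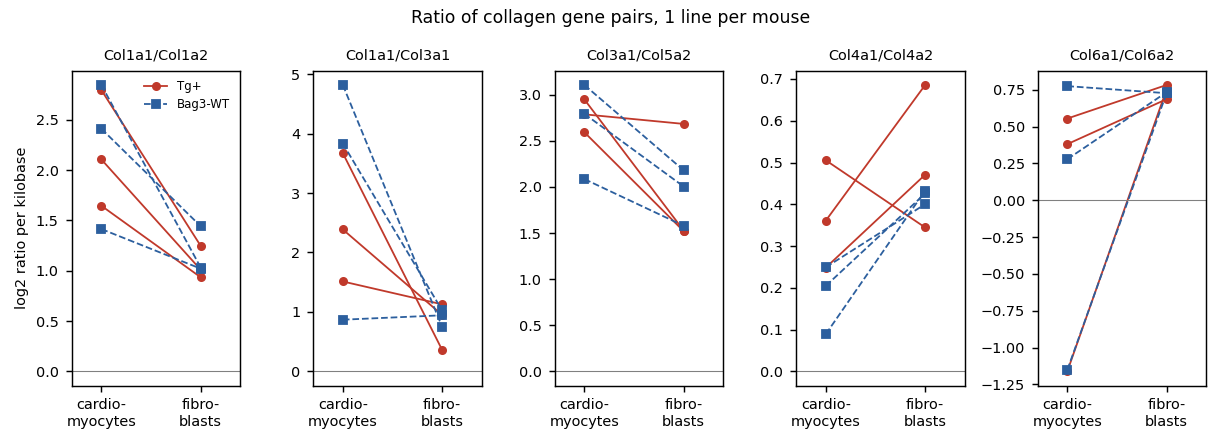
Log2 ratio per kilobase of 5 pairs of collagen genes in cardiomyocytes and fibroblasts, with 1 line per mouse, Tg+ solid and Bag3-WT dashed. The Col1a1/Col1a2 and Col3a1/Col5a2 lines all fall, and the Col6a1/Col6a2 lines meet in fibroblasts between 1.61 and 1.72 on the linear scale.

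Genotype was compared in each cell type (3 Tg+ against 3 Bag3-WT mice), and no collagen gene was called. In cardiomyocytes 0 of 25 members tested passed, as did 0% of 12114 genes (edgeR, with 87 genes at an unadjusted p under 0.05, and DESeq2 with 3 genes called, none a collagen). Of the 25, 15 had a negative and 10 a positive log2 fold change in Tg+, with a median of −0.13, where the median of all genes was 0.01. The median turned with single mice left out, to 0.12 without WT mouse 1, 0.14 without Tg+ mouse 3 and 0.01 without WT mouse 2, and was −0.43 without Tg+ mouse 1, −0.37 without WT mouse 3 and −0.27 without Tg+ mouse 2. Beside them, all 11 cardiomyocyte markers and all 10 macrophage markers had negative log2 fold changes in Tg+ cardiomyocytes (medians −0.62 and −0.39) and all 10 endothelial markers positive ones (median 0.31). Of 12 fibroblast markers 9 were positive (median 0.14), and of 8 mesothelial markers 7 were negative (median −0.37). Of 11 smooth muscle and pericyte markers 6 were positive (median 0.04). No marker of these lists was called, and their part in the collagen values was not tested. The lowest p belonged to Col23a1, which did not pass (0.76, SE 0.33, edgeR adjusted p = 1.00). It was the only member of 25 whose genotypes did not overlap, with all Tg+ values higher, where 4.16% of all genes did not overlap (2.06% higher and 2.1% lower in Tg+). Col13a1 (−1.34, SE 0.67) and Col1a2 (−1.01, SE 0.59) came next and overlapped between genotypes. For Col1a1 the log2 fold change was −1.30 (SE 0.78), with the WT mouse 2 value below all 3 Tg+ values.

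In fibroblasts 0 of 34 members tested passed, as did 0% of 13858 genes (edgeR, with 699 genes at an unadjusted p under 0.05, and DESeq2 with 6 genes called, none a collagen). The signs leaned one way, with 30 of 34 positive in Tg+ and a median log2 fold change of 0.22, against 0.02 over all genes. All 9 tested fibrillar, all 6 basement membrane and all 4 tested beaded filament genes were among them (class medians 0.17, 0.37 and 0.39), while FACIT genes were 3 positive and 3 negative. Cell type markers moved with genotype in the same columns, with none called. All 10 endothelial markers were positive (median 0.45), with sums of 4081 to 6581 nuclear CPM in Tg+ and 2944 to 3957 in Bag3-WT, and all 10 macrophage markers negative (median −0.73), with sums of 5510 to 10892 and 12802 to 15823. Neither list's sums overlapped between genotypes, and 11 of 12 fibroblast markers were positive (median 0.42). Of 11 cardiomyocyte markers 10 were negative (median −0.44), and of 7 mesothelial markers tested 6 were negative (median −1.48). Smooth muscle and pericyte markers were 8 positive and 3 negative (median 0.27). Fibroblasts of WT mouse 1 were the lowest column for 22 of the 34 members, and without that mouse 22 were positive and 14 negative, with a median of 0.07. Without WT mouse 2 the median was 0.51, and without WT mouse 3 it was 0.33. Animal codes in the titles hold the letter F (Tg+ mice 1 and 3, WT mouse 1) or M (the other 3), whose meaning is not stated. With that letter as a covariate the median was 0.51, with 31 of 34 positive, 4 members at an unadjusted p under 0.05 (0 without the covariate) and 0 called. The fibroblast library of WT mouse 1 also had the highest mitochondrial share (74.2%, against 16.7% to 39.2% in the other 5), the highest macrophage marker sum (15823 nuclear CPM) and the lowest fibroblast marker sum (3818). The part of these and of the marker shifts in the collagen levels was not tested. Lowest in p were Col5a3 (0.60, SE 0.31), Col6a3 (0.65, SE 0.35) and Col4a4 (0.39, SE 0.27), none of which passed (edgeR adjusted p = 0.782, 0.782 and 0.786). Col11a2, Col4a1 and Col4a2 did not overlap between genotypes, and each was higher in Tg+ (3 of 34 members, where 11.9% of all genes did not overlap, 5.1% higher and 6.85% lower in Tg+).

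**Figure D5:**
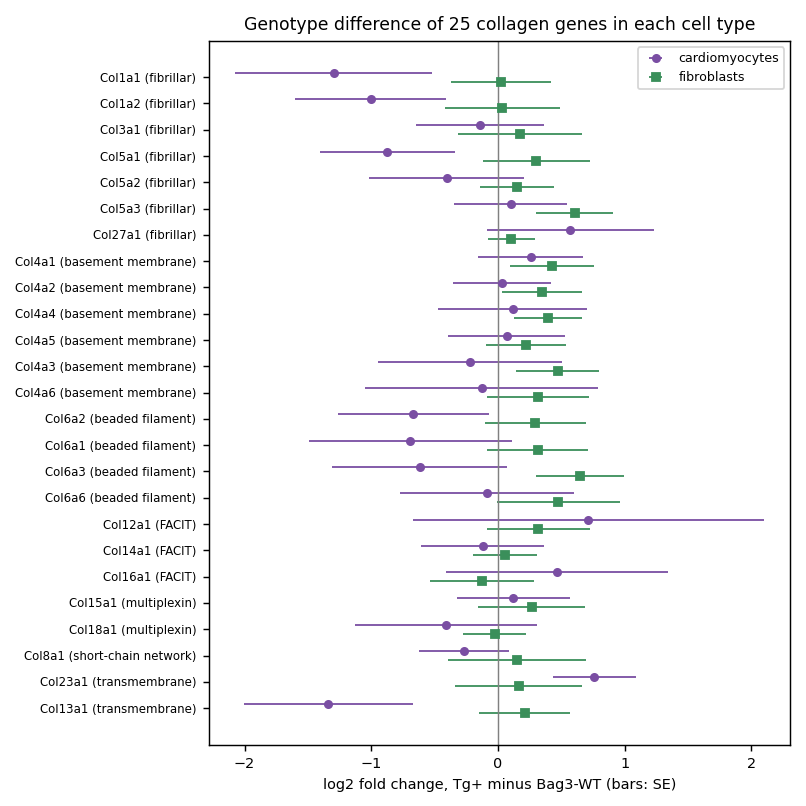
Log2 fold change of Tg+ minus Bag3-WT mice with its SE for the 25 collagen genes tested in both cell types, in cardiomyocytes (circles) and fibroblasts (squares). No gene passed in either cell type, and bars are longer in cardiomyocytes for most genes.

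Whether the genotype effect differed between cell types was tested as an interaction over 12 columns. Of 37 members 0 passed, as did 0% of 14223 genes (edgeR, with 138 genes at an unadjusted p under 0.05, and DESeq2 with 1 gene called, not a collagen). The lowest p belonged to Col5a1 (−1.15, SE 0.67), Col2a1 (−3.09, SE 1.89) and Col13a1 (−1.26, SE 0.82), each with an edgeR adjusted p of 1.00. Col5a1, which starts type I fibrils, stood at 394, 290.3 and 490.1 (Tg+) and 527, 403 and 1249 nuclear CPM (Bag3-WT) in cardiomyocytes and at 314, 391 and 355 (Tg+) and 118, 380.4 and 339 (Bag3-WT) in fibroblasts. WT mouse 3 was its highest cardiomyocyte column and WT mouse 1 its lowest fibroblast column.

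The difference between cell types was also read in each genotype, from the same layout. In Tg+ mice Col11a2, Col9a3, Col2a1 and Col20a1 were called lower in cardiomyocytes and none higher (4 of 37, where 19.6% of all genes were called, 6.71% higher and 12.9% lower). As above, Col9a3 and Col2a1 passed the filter on low counts only through fibroblast columns. In Bag3-WT mice Col11a2, Col20a1, Col9a3 and Col27a1 were lower and Col1a1 and Col13a1 higher (6 of 37, where 22.7% of all genes were called, 7.66% higher and 15% lower). Col1a1 was 2.10 higher on the log2 scale in Tg+ mice (SE 0.76, adjusted p = 0.0826) and 3.12 in Bag3-WT mice (SE 0.91, adjusted p = 0.0368). DESeq2, chosen after seeing the data, called 1 collagen higher and 6 lower in Tg+ mice (27.7% of all genes, 10.8% higher and 16.9% lower) and 4 higher and 4 lower in Bag3-WT mice (29.8% of all genes, 12% higher and 17.8% lower), with Col1a1 higher in both (2.08 and 3.14). The difference between genotypes is the interaction above, which did not pass for any collagen.

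The spread between mice was described beside that between repeats, which come from the same animal. Over 15 members that had enough counts in both repeats of each mouse, the 2 libraries of a mouse differed by a median of 1.06-fold, different cardiomyocyte mice by 1.82-fold and different fibroblast mice by 1.37-fold. Cardiomyocytes of Tg+ mouse 3 were the lowest column for 16 of the 25 members tested there, among them all of Col6a1, Col6a2, Col6a3 and Col6a6, and the highest for Col12a1 and Col27a1. Among cardiomyocyte columns it also had the lowest fibroblast (5121), endothelial (3455), macrophage (1154) and mesothelial (38.8) marker sums. Its smooth muscle and pericyte marker sum was the highest (5089), and the part of these cells in the collagen levels was not tested. Tg+ mouse 1 was the highest for 10 members, including all 6 type IV genes, and WT mouse 1 for 7, including Col1a1, Col1a2, Col6a1, Col6a2 and Col6a3.

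Genes that process, cut, cross-link or bind collagen were counted between cell types in the same fit, where 43.7% of all genes were called. By direction, 19.3% of all genes were called higher and 24.4% lower, and on nuclear library size only 33.5% and 15.8%. Of 19 intracellular processing genes 4 were higher and 4 lower in cardiomyocytes (7 and 1 on nuclear library size only). P3h4, which helps lysine hydroxylation, was higher (log2 fold change 1.83, SE 0.22), as was Crtap of the prolyl 3-hydroxylase complex (1.06, SE 0.29). P3h2, a prolyl 3-hydroxylase, was lower (−1.77, SE 0.28), as was Mia3, which loads procollagen into transport vesicles (−0.89, SE 0.18). Serpinh1, the collagen chaperone HSP47, did not pass (0.54, SE 0.26).

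Of 8 propeptide cleavage genes 1 was higher, the protease Tll1 (1.04, SE 0.36), and 1 lower, Adamts14, which removes amino-terminal propeptides (−1.73, SE 0.31), and 2 and 1 on nuclear library size only. Of 6 cross-linking genes 2 were higher and none lower: Pxdn, which cross-links type IV collagen (0.82, SE 0.20, with 222 to 334 nuclear CPM in cardiomyocytes and 74.7 to 154 in fibroblasts), and the lysyl oxidase Loxl3 (1.10, SE 0.38). Lox itself did not pass (1.14, SE 0.75).

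Of 9 collagen receptor genes the receptor kinase Ddr1 (1.01, SE 0.19) and the uptake receptor Mrc2 (0.96, SE 0.35) were higher, and the immune receptor Lair1 (−1.14, SE 0.35) was lower. On nuclear library size only 3 were higher and 0 lower, and Lair1 no longer passed (−0.71, SE 0.40). Of 8 genes of fibril-binding proteoglycans and related proteins, Fmod (1.66, SE 0.43) and Sparc (0.93, SE 0.28) were higher and none was lower (4 and 0 on nuclear library size only). Of 14 basement membrane partners tested 3 were lower, Agrn (−0.91, SE 0.22), Lama5 (−0.59, SE 0.20) and Nid2 (−0.56, SE 0.20), and none was higher; on nuclear library size only it was 0 lower and 1 higher. No member of these 6 lists was called between genotypes in either cell type.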

How the data were processed

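RNA of isolated cells was oligo(dT)-selected and sequenced on Illumina machines, per the labels' protocols. The authors deposited estimated counts per gene that had not been normalized, 44.7% of them not whole. The authors also deposited normalized signal, which equals those counts over factors that differ between genes and libraries. Tools listed without role or order in the submitters' processing notes are R 3.4.4, kallisto 0.44.0 and DESeq2 1.18.1, with the build GRCm38.p6. Strandedness and annotation were not stated there.

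Columns were mapped to samples by the labels, with 0 unmapped. Both cardiomyocyte repeats of an animal were added and rounded to whole numbers, the 13 mitochondrial genes were dropped, and edgeR 4.0.16 in R 4.3.3 was run (filterByExpr, TMM, robust glmQLFit, glmQLFTest, two-sided, Benjamini-Hochberg over all genes tested, adjusted p < 0.05). Genotype was fitted in each cell type alone, and cell type and the interaction over 12 columns with the mouse as block. The biological coefficient of variation was 0.489 (cardiomyocytes), 0.284 (fibroblasts) and 0.363 (cell type). Tg+ mouse 1 and WT mouse 1 share the first part of their animal code and the other 4 mice have codes of their own. The labels do not say what that part means, or whether any mice were littermates. Cardiomyocyte samples were sequenced again to gain depth, per the labels, which do not tell if the repeats are these rounds. The scripts were tested on simulated data. Alternatives used DESeq2 1.42.0 and limma 3.58.1 voom, other scalings and filters, left-out mice and single repeats. The signal table entered 1 alternative, as log2(value + 1) with limma. Lengths are unions of GENCODE exons.

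The collagen genes, their classes, and the marker and pathway lists were chosen with earlier results of these data known. Values per mouse are given for each called member and for the 2 members per class with the highest mean level in either cell type, and Col3a1 and Col5a1 were added for the ratios and the interaction. Ranges stand in their place for Col2a1 and Col3a1, and in fibroblasts for Col10a1, Col26a1 and Col28a1. In comparisons with no call the 3 members with the lowest p are named. From each pathway list up to 4 called genes with the lowest p are named, and Serpinh1 and Lox were added after their values were seen. Intervals for single counts were not given, since mice were the unit.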

Additional observations from a re-analysis of the deposited data

How the results depend on the processing

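The number of collagen genes called between cell types was 14 in the main fit, and 9 with rep1 libraries only. All-gene calls were 6212 of 14223 and 5342 of 13686. Leaving out each mouse in turn gave 8 to 13, with 1 to 7 called higher and 5 to 11 lower in cardiomyocytes. The 5 higher calls became 1 without a filter on low counts and 2 with rep1 libraries only. All-gene higher calls were 2742 in the main fit, 2449 without the filter and 2131 with rep1 libraries only. The 9 lower calls became 5 on nuclear library size only and 5 without Tg+ mouse 3 and WT mouse 3 together, an alternative chosen after seeing the data, as were the fit on the deposited normalized signal and DESeq2 in each genotype. All-gene lower calls were 3470 in the main fit, 2250 on nuclear library size only and 3272 without those 2 mice. In Tg+ mice DESeq2 called 7 collagens between cell types, in place of 4. The cause of these changes was not tested. No collagen was called by genotype, or in the interaction, under any alternative run, leaving out each mouse included. Over all genes edgeR called 0 in these 3 fits and DESeq2 called 3 in cardiomyocytes, 6 in fibroblasts and 1 in the interaction. Between cell types 5022 to 6887 genes were called with 1 mouse left out. Collagen shares of all counts, mitochondrial genes included, were 0.389% in cardiomyocytes and 0.426% in fibroblasts, in place of 1.53% and 0.643%. No log2 fold change of a called collagen, and none of the 5 ratios, changed sign; leaving out mice moved the ratios to 0.94 to 1.23 (Col1a1/Col1a2), 1.57 to 2.40 (Col1a1/Col3a1), 0.68 to 0.94 (Col3a1/Col5a2), −0.25 to −0.15 (Col4a1/Col4a2) and −0.96 to −0.56 (Col6a1/Col6a2).

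Every cardiomyocyte mouse has a rep1 and a rep2 library, so repeat numbers cannot single out pairs of mice. Deviations of same-numbered libraries across genotypes correlated at a mean of 0.0156 (−0.456 to 0.416 over 18 pairs). Deviations were taken within genotype and repeats of a mouse lay close together, which largely fixes that mean in advance. No conclusion is drawn from it. With the repeat number as replicate block and mouse as random effect (limma voom on 12 cardiomyocyte libraries), 0 of 10760 genes and 0 collagens were called by genotype, with 418 genes at an unadjusted p under 0.05. Cardiomyocyte depth limits genes such as Col2a1 and Col10a1, which lay near the floor of 3 counts.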
